A study of Mus musculus with 6 samples.

Results

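The 10 genes described here are *Srf*, which encodes serum response factor (SRF), the cytoplasmic actins *Actb* and *Actg1*, the SRF targets *Vcl*, *Flna*, *Tpm1* and *Tagln2*, and the ERM genes *Ezr*, *Msn* and *Rdx*, which encode ezrin, moesin and radixin. They were picked by symbol from the 17784 genes in the expression table, and all 10 passed the filter for low counts. They were proposed with the difference between the groups already known, so their values are given as a description without a test. Bulk RNA-seq was performed on corneal epithelium of 3 Ptch1Prrx1 samples and 3 control samples. Ptch1Prrx1 mice (*Prrx1-CreERT;Ptch1f/f*, titled KO in the labels) carry a tamoxifen-inducible Cre driven by *Prrx1*, and the study's scheme gives the controls (titled WT) as *Ptch1f/f*. Per the labels, mice of both groups were 10 weeks old and received 3 doses of tamoxifen, the treatment lasted 2 months, and the epithelium was detached with EDTA. In the methods the age at induction is 2 months, and mice of both sexes were used. The Cre is active in keratocytes, corneal endothelium and other ocular mesenchyme, so deletion of *Ptch1*, the Hedgehog receptor that restrains the pathway, was directed at cells other than the epithelium that was sequenced.

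SRF is a transcription factor that binds the CArG box, a short motif of 2 C, 6 bases that are each A or T, and 2 G. It works with 2 families of partners. Myocardin-related transcription factors (MRTFs) are held in the cytoplasm by monomeric actin and enter the nucleus when actin polymerizes, and SRF with MRTF drives genes of the cytoskeleton, among them *Srf* and the actin genes themselves. Ternary complex factors (TCFs: Elk1, Elk3 and Elk4) are phosphorylated by MAP kinases, and SRF with TCF drives immediate early genes such as *Fos* and *Egr1*. ERM proteins link actin filaments beneath the membrane to membrane proteins. Ezrin is the ERM protein typical of epithelia, whereas moesin is abundant in endothelial, mesenchymal and blood cells.

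Promoter sequences of the members were examined because SRF acts through the CArG box. RefSeq windows (GRCm38.p6, 250 bases before to 50 bases after the start) were found for 9 of the 10 members, all but *Actb*. The CArG box was searched by its name pattern, which reads the same on both strands. It was found in 3 of the 9 genes (33.3%): *Srf*, *Actg1* and *Vcl*. Of all tested genes with a window, 162 of 10418 (1.56%) held it, and of all genes in the promoter table, 488 of 27025 (1.81%). The boxes are printed below with 10 bases on each side, 5′ to 3′ on the strand of the gene, with the box in capitals.
Srf, 82 bases before the start, chr17:46556225-46556254, minus strand: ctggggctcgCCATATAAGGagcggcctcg
Srf, 62 bases before the start, chr17:46556205-46556234, minus strand: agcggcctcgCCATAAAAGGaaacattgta
Actg1, 90 bases before the start, chr11:120348566-120348595, minus strand: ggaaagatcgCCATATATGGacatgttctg
Vcl, 227 bases before the start, chr14:20929161-20929190, plus strand: cccactatgcCCTTATAAGGagcgccccgc

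*Srf* itself thus carried 2 boxes close to each other, and the box of *Actg1* lay at a similar distance from its start. The windows of *Flna*, *Tpm1*, *Tagln2*, *Ezr*, *Msn* and *Rdx* (2 windows) held no exact match. With 1 mismatch allowed in the outer CC and GG, *Flna* and *Tpm1* also matched, so that 5 of 9 members (55.6%) and 11.9% of tested genes did. These are matches of letters within a short window, and binding was not measured. SRF and MRTF targets are partly known from such boxes, so the share among the members is no independent observation.

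The samples were sequenced to 20296741 to 20625814 expected counts, RSEM's estimate of the reads of a gene, so 3 counts correspond to 0.145 to 0.148 CPM (counts scaled to the size of the library), a floor that covers counting error only. The epithelial markers *Krt12* (37107 to 49487 TPM) and *Krt5* (23375 to 26327 TPM) were abundant in every sample. TPM is a transcript level that RSEM scales for gene length and depth, so it can be compared between genes. Normalized counts are scaled for depth but not for length. *Ptch1* had 517, 659 and 682 normalized counts in control and 390, 445 and 471 in Ptch1Prrx1 samples. The groups did not overlap, and the log2 fold change was -0.51 (standard error 0.13, edgeR adjusted p = 0.0401). The source of this difference in the epithelial samples was not tested. The keratocyte marker *Kera* was listed at 0.07 TPM or less, the leukocyte marker *Ptprc* at 0.2 or less, and the smooth muscle marker *Myh11* at 0.07 or less. Ptch1Prrx1 replicate 1 stood apart from replicates 2 and 3 on the first principal component (53.8 against 19.2 and 20.03, with the controls from -34.9 to -27.4). It had the highest normalized count of all 6 samples for 8 of the 10 members, so values without it are given beside those of the members. Reads of near-identical genes can be shared, which makes the split between the actins, among the tropomyosins, and from their pseudogenes uncertain. In bulk samples, a change in the share of a cell type and a change in RNA per cell cannot be told apart.

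The members covered a wide range of levels in control epithelium. *Actg1* was highest at 5715 ± 232 TPM (SD, n = 3) and ranked 12 of 17784 genes. *Actb* followed at 2401 ± 113 TPM (SD, n = 3), *Ezr* at 525 ± 25.3 and *Tagln2* at 226 ± 13.2. *Vcl* (75.6 ± 7.19), *Rdx* (63.3 ± 4.39) and *Flna* (60.1 ± 4.65) came next, and the ranges of *Vcl* and *Rdx*, and of *Rdx* and *Flna*, overlapped. *Srf* had 26.5 ± 1.47 TPM, *Tpm1* 15.95 ± 7.67 and *Msn* 1.54 ± 1.48. *Msn* thus ranked 11417 and was the only member below the middle of the table. In Ptch1Prrx1 samples *Flna* and *Rdx* exchanged places while their ranges overlapped, and the ranges of *Tpm1* and *Msn* came to overlap.

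**Figure D1:**
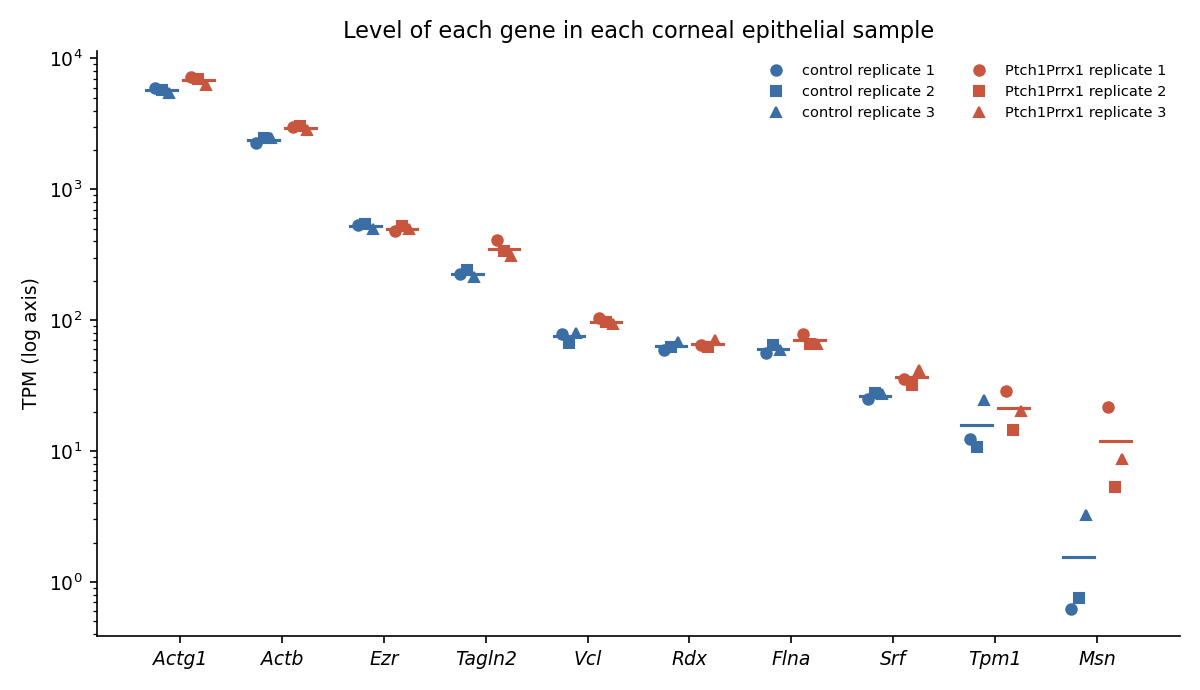
TPM of the 10 genes (log axis) in each of the 3 control samples (blue) and 3 Ptch1Prrx1 samples (red), with bars at the group means. The genes run from *Actg1* at 5495 TPM and above to *Msn*, whose 6 samples spread from 0.62 to 21.6 TPM, far more widely than those of the actins.

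*Srf* (gene 20807) was higher in Ptch1Prrx1 epithelium. It had 24.8, 27.6 and 27.1 TPM in control replicates 1, 2 and 3 and 35.6, 32.2 and 41.8 TPM in Ptch1Prrx1 replicates 1, 2 and 3. The groups did not overlap, and the highest sample was Ptch1Prrx1 replicate 3, not replicate 1. The log2 fold change was 0.50 (standard error 0.09), or 1.41-fold, and 0.47 without Ptch1Prrx1 replicate 1. It ranged from 0.43 to 0.58 over the main analysis and 16 alternatives. With any 1 control replicate left out, *Srf* no longer passed edgeR's adjusted p.

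Of the partners of SRF, the MRTF genes did not pass the test of the difference. *Mrtfa* had 21.8, 24.9 and 26.8 TPM in control and 25.9, 27.4 and 29.8 TPM in Ptch1Prrx1 samples, a log2 fold change of 0.22 (SE 0.08, edgeR adjusted p = 0.091, Benjamini-Hochberg over all tested genes). *Mrtfb* gave 0.21 (edgeR adjusted p = 0.153), and *Myocd*, the cardiac and smooth muscle relative, had 0 counts in 5 samples and 1 count in the other. Among the TCF genes, *Elk3* rose from 36.7, 37.5 and 43.3 TPM to 56.4, 56.0 and 59.9 TPM (log2 fold change 0.57, SE 0.07, edgeR adjusted p = 0.00769). *Elk4* (0.24, edgeR adjusted p = 0.186) and *Elk1* (-0.09, edgeR adjusted p = 0.698) did not pass. The number of cofactors that passed was 1 with any 1 sample left out other than control replicate 2, and 0 without that replicate.

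Both cytoplasmic actins, whose products form the filaments of the cell cortex, were higher in every Ptch1Prrx1 sample than in any control sample. *Actb* (gene 11461) had 2272, 2483 and 2447 TPM in control and 2969, 3035 and 2864 TPM in Ptch1Prrx1 samples, a log2 fold change of 0.34 (SE 0.08). *Actg1* (gene 11465) had 5957, 5694 and 5495 TPM in control and 7177, 6987 and 6325 TPM in Ptch1Prrx1 samples, a log2 fold change of 0.30 (SE 0.11). Without Ptch1Prrx1 replicate 1 the log2 fold changes were 0.31 for *Actb* and 0.23 for *Actg1*. *Actg1* did not pass edgeR's adjusted p in the main analysis. With all 6 samples, it passed in DESeq2 and when replicate number was added to the edgeR fit. *Actb* passed edgeR's adjusted p in the main analysis. It did not pass without Ptch1Prrx1 replicate 1, without Ptch1Prrx1 replicate 2, or with any 1 control replicate left out. Their sum does not depend on how shared reads were divided between them. It was 8229, 8177 and 7942 TPM in control and 10146, 10023 and 9189 TPM in Ptch1Prrx1 samples. The share of *Actb* in that sum was 29.6% ± 1.74 (SD, n = 3) and 30.2% ± 0.955 (SD, n = 3), with overlapping groups. The balance of the 2 actins thus differed by less than the spread between replicates, while their total was higher. The actins took 0.686 to 0.731% of all counts in control and 0.784 to 0.902% in Ptch1Prrx1 samples. Muscle actins were near the floor, with at most 0.51 TPM for *Acta1*, 0.08 for *Actc1* and 0.24 for *Actg2*. Smooth muscle actin, *Acta2*, had 0.93 to 2.70 TPM in control and 2.00 to 4.32 TPM in Ptch1Prrx1 samples (log2 fold change 0.87, edgeR adjusted p = 0.208).

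*Vcl* (gene 22330) encodes vinculin, which couples actin to focal adhesions and adherens junctions. It had 79.1, 67.4 and 80.4 TPM in control and 103, 96.4 and 92.8 TPM in Ptch1Prrx1 samples, which did not overlap, with a log2 fold change of 0.41 (SE 0.10). Without Ptch1Prrx1 replicate 1 it was 0.33. *Vcl* no longer passed edgeR's adjusted p without Ptch1Prrx1 replicate 1, without Ptch1Prrx1 replicate 2, or with any 1 control replicate left out. *Flna* (gene 192176), which encodes the crosslinker filamin A, had 55.9, 65.1 and 59.5 TPM in control and 79.1, 65.4 and 65.5 TPM in Ptch1Prrx1 samples. Ptch1Prrx1 replicates 2 and 3 lay just above control replicate 2 by TPM, and the groups overlapped by normalized count. The log2 fold change of *Flna* was 0.26 (SE 0.12), and without Ptch1Prrx1 replicate 1 it was 0.13.

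*Tagln2* (gene 21346) encodes transgelin 2, a widely expressed protein that binds and stabilizes actin filaments. It had 225, 240 and 214 TPM in control and 409, 338 and 312 TPM in Ptch1Prrx1 samples. The groups did not overlap, and Ptch1Prrx1 replicate 1 was the highest. Its log2 fold change of 0.69 (SE 0.13) was the second highest among the members, and without Ptch1Prrx1 replicate 1 it was 0.53. *Tagln2* no longer passed edgeR's adjusted p with any 1 control replicate left out. The smooth muscle paralog *Tagln* had at most 0.74 TPM.

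*Tpm1* (gene 22003) encodes a tropomyosin that lies along actin filaments. It had 12.3, 10.8 and 24.8 TPM in control and 28.6, 14.5 and 20.3 TPM in Ptch1Prrx1 samples. Control replicate 3 was higher than Ptch1Prrx1 replicates 2 and 3, and the groups overlapped. The log2 fold change was 0.47 (SE 0.35). It was 0.89 without control replicate 3 and 0.15 without Ptch1Prrx1 replicate 1. Of the other tropomyosins, *Tpm2* rose by 0.74 (SE 0.09, edgeR adjusted p = 0.00769), whereas *Tpm4* (0.53, edgeR adjusted p = 0.0576) and *Tpm3* (0.09, edgeR adjusted p = 0.469) did not pass.

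Of the 3 ERM genes, *Msn* was higher in Ptch1Prrx1 samples, whereas the groups overlapped for *Ezr* and *Rdx*. *Ezr* (gene 22350), the dominant ERM gene, had 536, 543 and 496 TPM in control and 483, 520 and 500 TPM in Ptch1Prrx1 samples (log2 fold change -0.03, SE 0.08). *Rdx* (gene 19684) had 59.3, 62.6 and 68.0 TPM in control and 64.7, 62.8 and 70.4 TPM in Ptch1Prrx1 samples (log2 fold change 0.09, SE 0.06). Without Ptch1Prrx1 replicate 1 the log2 fold changes were -0.03 for *Ezr* and 0.07 for *Rdx*. *Msn* (gene 17698) had 0.62, 0.75 and 3.25 TPM in control and 21.6, 5.33 and 8.76 TPM in Ptch1Prrx1 samples. These rest on 23, 27 and 117 expected counts in control and 807, 191 and 309 in Ptch1Prrx1 samples, so relative counting error is larger for *Msn* than for any other member. The groups did not overlap, although control replicate 3 was well above control replicates 1 and 2, and Ptch1Prrx1 replicate 1 stood above the rest.

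The log2 fold change of *Msn* was 3.03 (SE 0.73), or 8.16-fold, and higher than that of 99.6% of tested genes. It was 2.21 without Ptch1Prrx1 replicate 1, 4.16 without control replicate 3 and 3.34 without both. *Msn* was the only member called, that is, past an adjusted p of 0.05 with a change of at least 2-fold. The call was lost without Ptch1Prrx1 replicate 1, without Ptch1Prrx1 replicate 3 (log2 fold change 3.24), without control replicate 1 (2.66) and without control replicate 2 (2.70). With all 6 samples it was also lost in limma-voom (log2 fold change 3.14). Moesin nevertheless remained a minor ERM transcript. Its share of ERM TPM was 0.104, 0.124 and 0.573% in control and 3.80, 0.906 and 1.51% in Ptch1Prrx1 samples. *Ezr* made up 89.0% ± 1.35 (SD, n = 3) and 86.5% ± 1.81 (SD, n = 3), with overlapping groups, and the ERM sum was 590 ± 20.1 and 579 ± 9.80 TPM (SD, n = 3).

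Markers of other cells moved with *Msn* and *Tpm1* in single samples. The 8 keratocyte markers in the table summed to 9.54, 8.24 and 35.1 TPM in control and 7.75, 9.77 and 6.88 TPM in Ptch1Prrx1 samples, so control replicate 3, where *Msn* and *Tpm1* were highest among controls, was also highest for these. *Col1a2* made up 26.0 TPM of that sum in control replicate 3, and *Kera* was at 0.07 TPM. In Ptch1Prrx1 samples, where *Msn* was higher, the keratocyte sum was 9.77 TPM or less. Of the 3 tested markers of that list, 0 had a log2 fold change above 0. *Dcn*, which was not tested, had 0.06 to 0.36 TPM in control and 0.54 to 1.35 TPM in Ptch1Prrx1 samples, at 23 expected counts or fewer. The paper reports less keratocan and collagen I after *Ptch1* deletion, so this sum does not measure how many keratocytes a sample held. The 5 conjunctival markers summed to 1391, 1851 and 2324 TPM in control and 4677, 2180 and 2899 TPM in Ptch1Prrx1 samples, which puts Ptch1Prrx1 replicate 1 highest, as for *Msn*. *Krt4*, *Krt13* and *Krt19* carried that sum, 0 of the 4 tested markers passed edgeR's adjusted p, and the goblet cell marker *Spdef* was at 0.38 TPM or less. The 8 immune markers summed to 113 to 151 TPM in control and 149 to 194 TPM in Ptch1Prrx1 samples, almost all of it *Itgam* and *Cd68*. The 8 smooth muscle and pericyte markers summed to 2.21, 3.55 and 3.03 TPM in control and 6.93, 5.26 and 4.42 TPM in Ptch1Prrx1 samples. These groups did not overlap, and Ptch1Prrx1 replicate 1 was highest, as for *Msn*. *Acta2* made up 4.32 TPM of the sum in that replicate. *Acta2*, *Tagln* and *Cnn1* are also in the list of SRF and MRTF targets below, so this sum is not separate from those targets. Of the 2 tested markers of that list, *Cspg4* rose (log2 fold change 1.54, edgeR adjusted p = 0.0112) and *Acta2* did not pass, while *Myh11*, *Cnn1*, *Des* and *Rgs5* were at 0.15 TPM or less. The 4 vascular endothelial markers summed to 0.47 TPM or less in every sample. The part of these cells in the values of *Msn* and *Tpm1* was not tested.

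**Figure D2:**
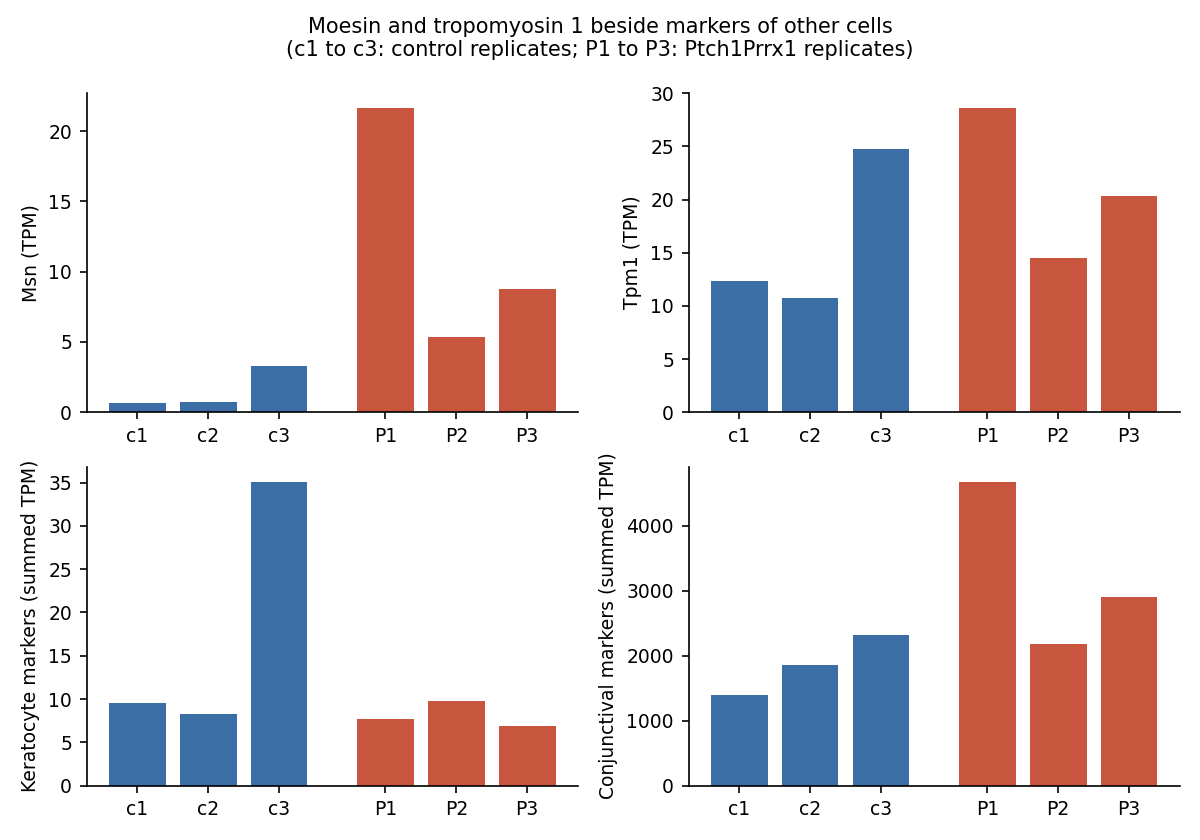
TPM of *Msn* and *Tpm1* and summed TPM of keratocyte and conjunctival markers in control replicates (c1 to c3, blue) and Ptch1Prrx1 replicates (P1 to P3, red), as bars from 0. Control replicate 3 is highest among controls in all 4 panels, and Ptch1Prrx1 replicate 1 is highest of all samples for *Msn*, *Tpm1* and the conjunctival markers.

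*Flna* and *Msn* lie on the X chromosome, and the labels do not give the sex of the animals. The 4 Y-linked genes in the table (*Ddx3y*, *Eif2s3y*, *Kdm5d* and *Uty*) summed to 68.8 to 72.8 TPM in control samples and to 120, 80.0 and 81.7 TPM in Ptch1Prrx1 replicates 1, 2 and 3. All 6 samples thus held Y-linked transcripts, with Ptch1Prrx1 replicate 1 highest, and their part in the values of *Flna* and *Msn* was not tested. The sex marker *Xist* was not found by symbol, so a contribution of female animals was not examined.

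Set beside the whole table, 1 of the 10 members was called, against 3.23% of the 12999 tested genes. It was called as higher (2.34% of tested genes were), and 0 members as lower (0.892%). By edgeR's adjusted p with no minimum fold change, 5 members passed (*Srf*, *Actb*, *Vcl*, *Tagln2* and *Msn*) against 14% of tested genes. All 5 were higher, against 7.61% of tested genes, and 0 were lower, against 6.41%. The count of 5 was 0 without control replicate 1 or without control replicate 2, 1 without control replicate 3, 2 without Ptch1Prrx1 replicate 1 and 3 without Ptch1Prrx1 replicate 2. The groups did not overlap for 6 members, against 39.9% of tested genes in either direction. All 6 were higher in Ptch1Prrx1 samples, against 19.7%, and 0 were lower, against 20.3%. The log2 fold change was above 0 for 9 of the 10 members and for 48.5% of tested genes. The median log2 fold change of the members was 0.38, against -0.01 for all tested genes. Since this contrast was used to choose the members, nothing is read from these counts.

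**Figure D3:**
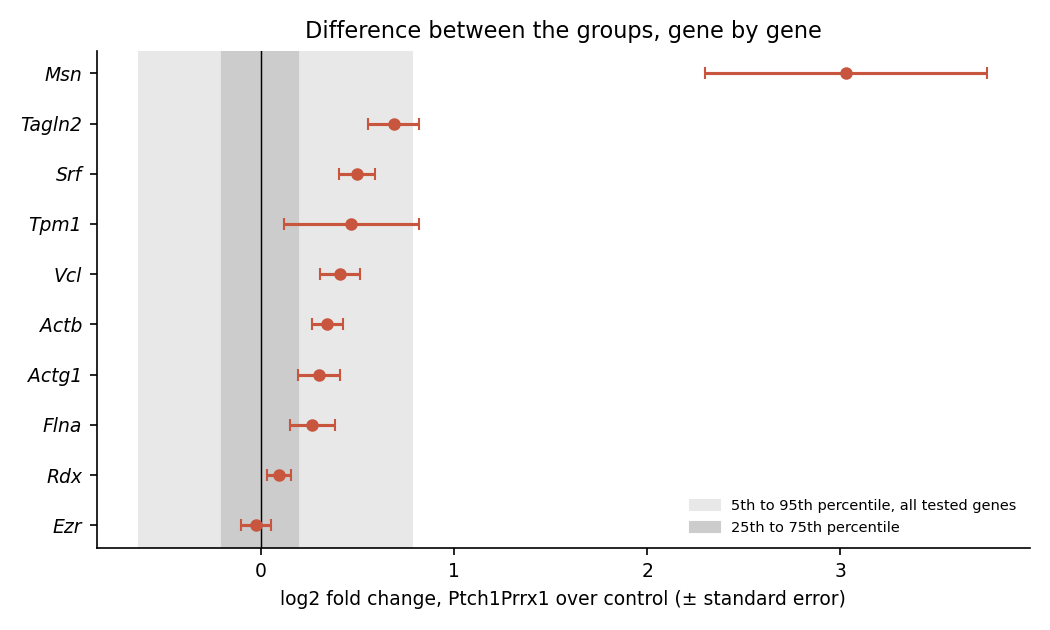
Log2 fold change of each member (Ptch1Prrx1 over control, points with standard errors) over the spread of all tested genes (grey bands, 5th to 95th and 25th to 75th percentile). *Msn* lies at 3.03, well outside the band that ends at 0.78, *Tagln2* at 0.69, and *Ezr* and *Rdx* near 0.

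**Figure D4:**
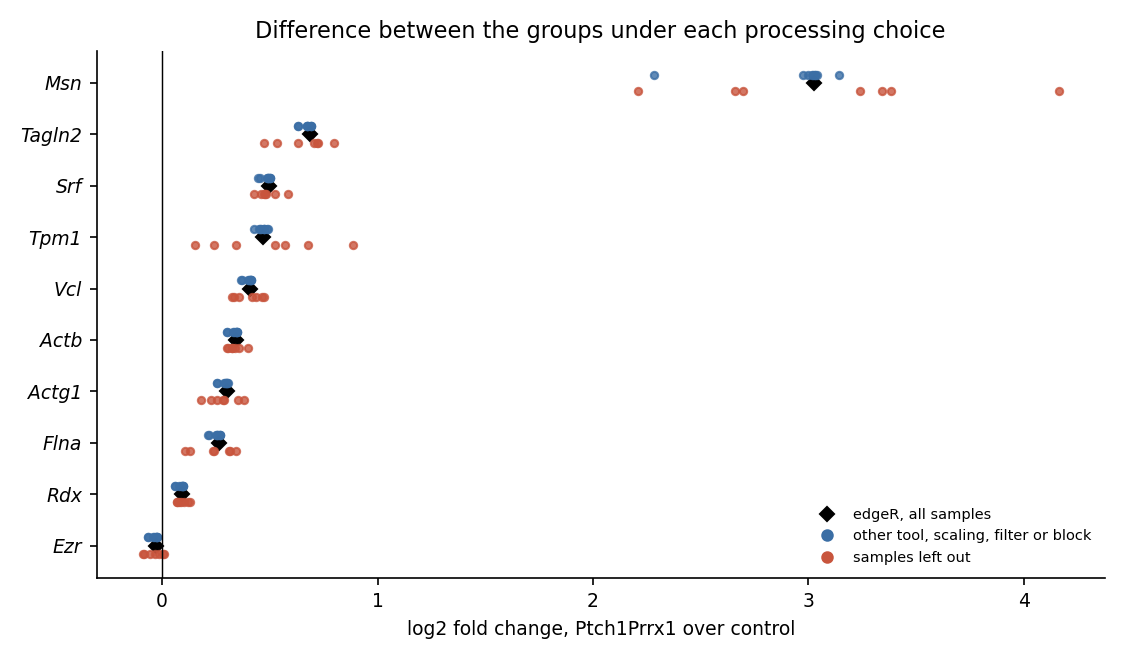
Log2 fold change of each member in the main analysis and in each of the 16 alternatives. The values of the actins, *Srf*, *Vcl* and *Rdx* stay close together, while those of *Msn* (2.21 to 4.16) and *Tpm1* (0.15 to 0.89) spread most.

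The other genes of SRF and the actin cytoskeleton were described by 9 lists that together hold 132 genes besides the members, 121 of them tested. The lists overlap, and a gene in more than 1 list is counted in each of them below. By edgeR's adjusted p, 31 rose (25.6%, against 7.61% of all tested genes) and 2 fell (1.65%, against 6.41%), with a median log2 fold change of 0.18. The lists were chosen with earlier results of these data known, so these shares are a description and no independent observation. The number that rose was 13 without control replicate 1, 5 without control replicate 2 and 15 without control replicate 3, and it was 21 to 28 without any 1 of the Ptch1Prrx1 replicates. The genes named below are those of the analysis with all 6 samples.

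Of the 10 immediate early targets of SRF and TCF, 9 rose, 0 fell and 1 (*Fosl1*) did not pass, with a median log2 fold change of 1.98. Genes near the floor weigh on that median: *Egr3* had 2, 0 and 0 expected counts in control samples and *Egr2* 5, 3 and 3. Over the 7 genes with at least 10 counts in every sample, all of which rose, the median was 1.27, and by limma on log2(TPM + 1) it was 1.33 over 8 genes. *Nr4a1*, an orphan nuclear receptor induced rapidly by growth factors, had 1.2, 1.6 and 0.91 TPM in control and 10.6, 13.2 and 9.92 TPM in Ptch1Prrx1 samples (log2 fold change 3.21, SE 0.23, edgeR adjusted p = 0.00263). The AP-1 subunits *Fosb* (2.57, edgeR adjusted p = 0.0105) and *Junb* (0.73, edgeR adjusted p = 0.0107) also rose. For *Nr4a1* the 3 Ptch1Prrx1 samples lay close together, and replicate 1 was not the highest. The number that rose in this list was 5 without control replicate 1, 4 without control replicate 2 and 5 without control replicate 3.

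Of the 32 cytoskeletal targets of SRF and MRTF, 26 were tested, 10 rose, 1 fell and 15 did not pass, with a median log2 fold change of 0.45. *Fhl2*, a LIM-domain cofactor, had 0.27, 0.08 and 0.56 TPM in control and 6.67, 2.61 and 4.13 TPM in Ptch1Prrx1 samples (log2 fold change 3.99, SE 0.59, edgeR adjusted p = 0.0113). Its control values were near the floor, at 4, 1 and 7 expected counts, so the size of this change is uncertain. *Pdlim7*, which encodes a PDZ and LIM protein of actin filaments, rose by 1.31 (SE 0.15, edgeR adjusted p = 0.0075). *Fhl1*, of the same family as *Fhl2*, was the gene that fell, from 34.2, 34.6 and 22.5 TPM to 6.99, 14.9 and 8.70 TPM (log2 fold change -1.54, SE 0.29, edgeR adjusted p = 0.0203). The 6 untested genes were the muscle genes *Acta1*, *Actc1*, *Actg2*, *Tagln*, *Cnn1* and *Myl9*, at 0.74 TPM or less. The number that rose in this list was 3 without control replicate 1, 1 without control replicate 2, 4 without control replicate 3 and 5 without Ptch1Prrx1 replicate 2. Exact CArG boxes were found in 7 of the 27 genes of this list with a window (25.9%, against 1.56% of tested genes). Examples are *Fhl2* and *Fhl1*, which moved in opposite directions. Such targets are partly known from these boxes, so this share is no independent observation.

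Most genes that build, bind and anchor filaments did not pass the test, as for all tested genes, of which 14% passed. Of crosslinkers and focal adhesion genes 26.7% rose, of filament and monomer binding genes 14.3% and of nucleators 25%. Of all tested genes, 7.61% rose and 6.41% fell. Among crosslinkers and focal adhesion genes, 4 of 15 rose and 0 fell, including *Tes* (1.07, edgeR adjusted p = 0.0151) and *Zyx* (0.57, edgeR adjusted p = 0.0186), LIM proteins of adhesions under tension, and *Vasp* (0.35, edgeR adjusted p = 0.0435), which extends filaments. Among filament and monomer binding genes, 3 of 21 rose and 0 fell: *Tpm2*, *Twf1* (0.52, edgeR adjusted p = 0.0112), which binds monomers and caps filaments, and *Wdr1* (0.38, edgeR adjusted p = 0.0256), which assists cofilin. *Zyx*, *Vasp*, *Tpm2* and *Wdr1* were already counted among the 10 cytoskeletal targets of SRF and MRTF that rose. Among nucleators, 4 of 16 rose and 0 fell. These included the formins *Diaph3* (0.85, edgeR adjusted p = 0.00906) and *Diaph2* (0.66, edgeR adjusted p = 0.0153) and the Arp2/3 activator *Wasf2* (0.26, edgeR adjusted p = 0.0446). These small counts rested on all 6 samples. Without control replicate 2, the sample whose removal lowered them most, 0 crosslinkers, 1 filament binding gene and 0 nucleators passed as higher. Without Ptch1Prrx1 replicate 1 they were 2, 4 and 2.

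Regulators and partners of the ERM proteins included 2 genes that rose and 0 that fell among 9 tested. *Slk*, a kinase that phosphorylates ERM proteins, rose by 0.34 (SE 0.07, edgeR adjusted p = 0.0256), and *Slc9a3r1*, which encodes the scaffold NHERF1, rose by 0.33 (SE 0.07, edgeR adjusted p = 0.0284). *Nf2*, which encodes the ERM relative merlin, had a log2 fold change of 0.06 (edgeR adjusted p = 0.467), and the kinase gene *Stk10* -0.23 (edgeR adjusted p = 0.425). Among 11 other genes with a FERM domain, *Epb41* rose (0.29, edgeR adjusted p = 0.0233) and *Frmd4a* fell (-0.87, edgeR adjusted p = 0.0214). Without any 1 of the control replicates, 0 genes of both lists passed in either direction.

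**Figure D5:**
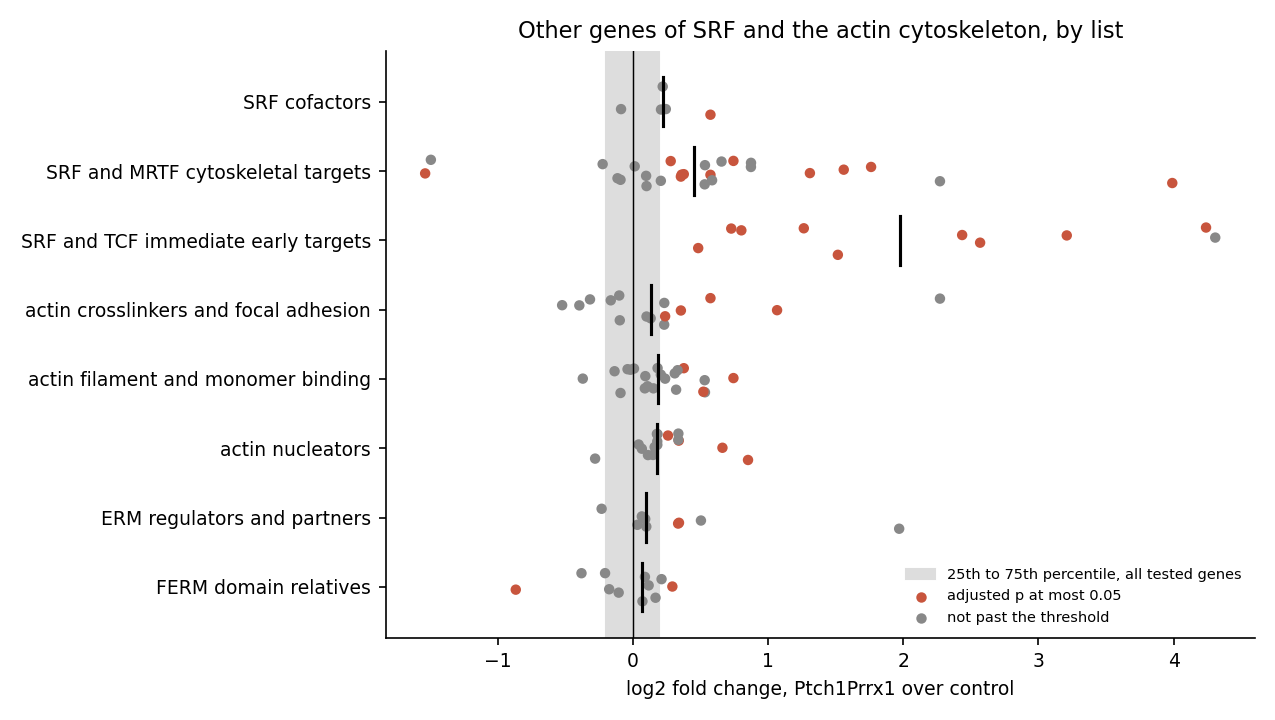
Log2 fold change (Ptch1Prrx1 over control) of each tested gene of 8 of the 9 lists, red where edgeR's adjusted p was at most 0.05, with black bars at the medians and the middle 50% of all tested genes in grey. The immediate early list lies farthest to the right, with a median of 1.98, and the medians of the other lists shown lie from 0.07 to 0.45.

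The mean length of the transcripts that carried the reads was compared as a ratio of the deposited columns, not as a level. It was taken as the expected count divided by TPM, scaled within each sample by the median of this ratio over genes, for the 9 members with at least 1 TPM in every sample. The differences between the group means ran from -0.333% for *Rdx* to 0.243% for *Tpm1*. The two-sided exact permutation test gave p from 0.1, the smallest that 3 against 3 samples allow, to 1, and Benjamini-Hochberg values over the 9 genes from 0.225 to 1. No gene could have passed a threshold of 0.05 in this design, so the test does not bear on whether isoform lengths differed.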

How the data were processed

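Corneal epithelium was profiled by bulk RNA-seq in 3 control and 3 Ptch1Prrx1 samples, grouped by the labels' titles. The study describes rRNA depletion and a DNA nanoball platform, and the labels an Illumina kit. The authors aligned clean reads with Bowtie2 2.2.5 and quantified genes with RSEM 1.2.12, and the submitters' processing notes name the build mm9. The authors deposited RSEM's expected counts, which are not scaled for depth, and TPM and FPKM, both scaled for length and depth. FPKM was not used. Each sample had its own columns, and 39.4% of expected counts above 0 were not whole because RSEM divides shared reads.

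Expected counts were rounded. Of 17784 genes, 12999 passed filterByExpr and entered the quasi-likelihood test of edgeR 4.0.16 under R 4.3.3, with TMM normalization (factors 0.960 to 1.03). P values were adjusted by the Benjamini-Hochberg method over all tested genes, and calls used the study's thresholds (adjusted p of at most 0.05, at least 2-fold). Normalized counts are CPM on TMM-scaled libraries times their mean size. The fit was tested on counts simulated for this comparison, in which 200 of 12999 genes differed by 1.5 on the log2 scale. By adjusted p with no minimum fold change, it found 88.5% of them, and 3.8% of the genes that passed were wrong. Smaller differences, such as most of those described here, were not simulated. The study states 3 biological replicates per group, and the labels do not say which animals a sample came from. Samples of a group differed by more than sampling noise (chi-square over degrees of freedom of 10.1 to 37.8).

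The members and lists were chosen with earlier results of these data known. Named were all members, the SRF cofactors, *Nf2*, *Slk* and *Stk10*, and, from each list, up to 3 genes per direction with the lowest adjusted p among those past the threshold. *Tpm3*, *Tpm4*, *Fosl1*, *Egr2*, *Egr3* and the muscle genes were named outside this rule, after their values were seen. Some results that meet the rule, 1 list among them, are not reported here. *Lum*, *Kdr*, *Muc5ac* and *Xist* were not analysed here. Promoter sequences are from RefSeq GRCm38.p6, a build other than that of the counts. Alternatives were DESeq2 1.42.0, limma-voom (limma 3.58.1), RLE and upper-quartile factors, no filter, at least 10 counts in every sample, a replicate block, limma on log2 TPM after adding 1 or 0.1 (genes with a mean of 1 TPM or more), and each sample left out in turn. Leaving out control replicate 3 and Ptch1Prrx1 replicate 1 together was added after the data were seen.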

Additional observations from a re-analysis of the deposited data

How the results depend on the processing

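Of the 10 members, 9 kept the sign of their log2 fold change in the main analysis and all 16 alternatives, and *Ezr*, near 0, was above 0 in 2 of them. Counts of calls depended on single samples. Of the results for all genes, 420 were called in the main analysis, 234 with limma on log2(TPM + 1) and 59 to 430 with 1 sample left out, and 1822 passed the adjusted p, against 93 to 1325 with 1 sample left out and 1177 without control replicate 3 and Ptch1Prrx1 replicate 1. Members called numbered 1 in the main analysis, 0 with limma-voom and 0 to 1 with 1 sample left out. Members past the adjusted p numbered 5, against 6 with DESeq2 (*Actg1* in addition), 4 with limma-voom and 0 to 4 with 1 sample left out. They numbered 2 without those 2 samples, where the log2 fold change of *Tagln2* was 0.47. Of the list genes, 33 passed (5 to 31 with 1 sample left out), 31 of them higher (5 to 28) and 2 lower (0 to 3, and 5 with DESeq2). The largest difference in transcript length was -0.333% in the main analysis and -1.03 to 1.61% with 1 sample left out. The CArG box was found in 3 members, and in 5 with 1 mismatch. Leaving out samples leaves fewer degrees of freedom, and for the other settings the cause was not tested.

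The labels number the replicates alike in both groups, but same-numbered samples deviated from their group means with correlations of only 0.102, -0.0366 and 0.0107, so the numbers were not taken to pair the samples. With a replicate block, 6 members passed (*Actg1* in addition), 1892 genes passed, and 4 list genes were lower. *Msn* had 23 to 117 counts in control samples, so counting error weighs more on its fold change than on that of any other member. Its spread between samples was also the largest among the members. The SD of its normalized counts was 94.5% of the mean in control and 76.4% in Ptch1Prrx1 samples.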

Other observations

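The genes whose levels ran most like those of *Srf* and *Actb* over the 6 samples were ranked by Pearson's r of log2 CPM among 10322 tested genes whose mean normalized count reached 100. These r are descriptive, since the 6 samples form 2 groups and a gene that differs between them shares that difference. For *Srf* they included *Tet2*, *Serinc5*, *St3gal1* and *Kcnj15*, with r from 0.9864 to 0.9953. For *Actb* they were *Myo1c*, *Wdr1*, *Hspa14*, *P2ry2* and *Septin9*, with r from 0.9936 to 0.9987. *Wdr1*, which assists cofilin in taking filaments apart, is also in the list of filament binding genes.

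The basal keratin gene *Krt14* had 534, 535 and 644 TPM in control and 5798, 3254 and 2420 TPM in Ptch1Prrx1 samples, with Ptch1Prrx1 replicate 1 highest, as for 8 of the 10 members.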
